A study of Mus musculus with 4 samples.

Results

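The 9 enzymes and transporters of the epidermal lipid barrier (Sptlc2, Elovl4, Cyp4f39, Cers3, Pnpla1, Ugcg, Abca12, Alox12b and Aloxe3) were followed in RNA-seq of epithelial cells derived from the tongue of C57BL/6 mice, 4 libraries in all. The genes were chosen by symbol, and 9 of 9 were found among 54446 genes that carry an Ensembl ID and a symbol. Control 1 and 2 are labelled wild type, and the libraries numbered 3 and 4 are labelled as systemically deficient for Otub2, which encodes an OTU-type deubiquitinase. Cells of all 4 libraries were grown in RPMI-1640 with fetal bovine serum, and no age, sex or part of Otub2 that was deleted is given in the labels. Whether replicate libraries stem from different mice or cultures is not stated, so p-values cover only the variation among these samples, possibly technical. The count columns of the libraries labelled Otub2 knockout are headed OE with the numbers 3 and 4, an abbreviation often used for overexpression. They were matched to the titles by number, and every direction given here rests on the titles.

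The outermost layers of skin, and of other keratinised epithelia such as the dorsal tongue, hold water by means of lipids that differentiating keratinocytes make and secrete. Their hallmark is the acylceramide, a ceramide with an ultra-long omega-hydroxylated fatty acid that carries linoleate at its end. It is glucosylated, loaded into lamellar granules and, after oxidation of the linoleate by lipoxygenases, attached to proteins of the cornified envelope. Inherited loss of several of these genes in people causes congenital ichthyosis.

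Gene counts summed to between 11548186 and 22719550 per library, and the 9 genes had between 217 and 5027 counts each. Otub2 had 393 counts in Control 1, 367 in Control 2, 272 in library 3 and 495 in library 4, or 27.5, 26.9, 19.0 and 23.95 CPM (counts scaled by library size). These values do not check a deletion, because exons that were kept can still give reads. Library sizes were scaled with TMM, a factor that assumes most genes do not differ between libraries. In library 3 the factor was 0.650, and CPM over the genes tested summed to 1537400. Its CPM values are therefore larger than its shares of gene counts. All 10 pan-epithelial markers, among them Krt5, Krt14, Cdh1 and Trp63, were present in every library. Library 3 stood apart: 10 markers of salivary gland secretory cells summed to 402400 CPM there, against 5.86 to 6.86 in the controls and 27.1 in library 4. Nearly all of this sum was Mucl2 (381470 CPM) and Pip (20911 CPM), while Smr3a and Dcpp1, Dcpp2 and Dcpp3 were at 0 in library 3 and Muc19 was at 3.70 CPM against 3.57 and 2.34 in the controls. The 8 cardiac muscle markers summed to 18064 CPM in library 3 against 54.2 to 54.4 in the controls and 31.1 in library 4. In library 3, 7 of the 8 were above both controls. With library 4 left out and the scaling redone, 40.4% of all genes tested were. The 10 most abundant genes took 40.0% of gene counts in library 3 and 8.12% to 12.4% in the others.

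Levels of the 9 genes were lower in the libraries labelled Otub2 knockout, from less than the spread between libraries for Aloxe3 to 2.32-fold for Cyp4f39, except that Sptlc2 and Aloxe3 were slightly higher when features that name no gene were kept, and Aloxe3 also without library 3. None of the 9 passed the test after adjustment. The 9 genes together summed to 1410 CPM in Control 1, 1544 in Control 2, 832 in library 3 and 985 in library 4. Both libraries labelled Otub2 knockout lay below both controls for 7 genes and above for 0, while Abca12 and Aloxe3 overlapped. Over all 21916 genes tested, 33.1% lay below both controls in this way and 26.9% above, and among the 11788 genes with a mean of at least 5 CPM, which all 9 genes passed, the shares were 12% and 42.7%. These shares move with the scaling: with upper-quartile factors 31.3% lay below and 15.8% above, and all 9 genes lay below. Across the alternatives that kept all libraries, 5 to 9 of the 9 genes lay below both controls. No gene passed the quasi-likelihood F-test of edgeR after Benjamini-Hochberg adjustment over all genes (0% called in either direction, smallest adjusted p = 0.162), so 0 of 9 were called. With edgeR at an unadjusted p under 0.05, 5 of 9 were lower and 0 higher, against 15.2% lower and 9.42% higher over all genes tested and 3.66% and 15.6% among those of at least 5 CPM. DESeq2 called 0 of 9 (1.62% of genes lower and 4.89% higher over all genes it gave an adjusted p), with a smallest adjusted p of 0.0733 for Cyp4f39, and voom also called 0. With 2 libraries against 2, an exact two-sided permutation test cannot give a p below 0.333. In bulk RNA, fewer cells of a type and less RNA per cell cannot be told apart.

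**Figure D1:**
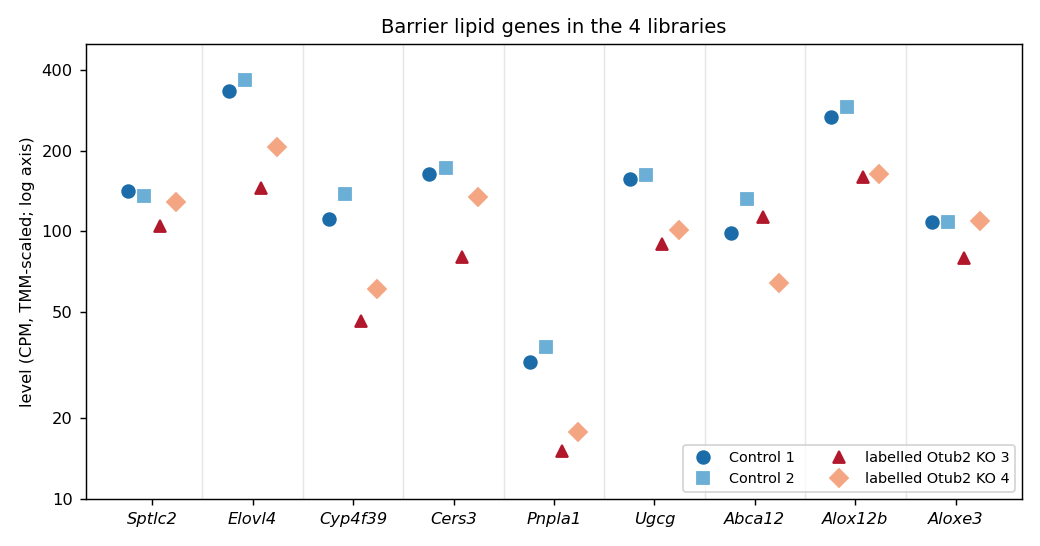
Level of each of the 9 genes (CPM, TMM-scaled, log axis) in the 4 libraries, one point per library. For 7 genes both libraries labelled Otub2 knockout sit below both controls, whereas Abca12 in library 3 (113 CPM) and Aloxe3 in library 4 (110 CPM) lie at the level of the controls.

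Sptlc2, a subunit of serine palmitoyltransferase, which makes the sphingoid base at the start of the pathway, was at 141 CPM in Control 1, 135 in Control 2, 105 in library 3 and 129 in library 4. Library 4 was just below the lower control, and with RLE scaling it was not. The log2 fold change, libraries labelled Otub2 knockout over controls, was -0.24 (SE 0.256, 95% interval -0.89 to 0.41, edgeR adjusted p = 0.555). Sptlc2 lies on chromosome 12, 87305058 to 87388355, minus strand (coordinates are those of GENCODE on GRCm38). A non-coding RNA, Gm26764, runs on the opposite strand within it with 140, 79, 29 and 74 counts, and the strand setting of the counting is not given in the sources used here.

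Elovl4 elongates the fatty acid of the acylceramide to its ultra-long form and had the highest level per length of the 9 genes in both controls. It was at 333 CPM in Control 1, 368 in Control 2, 145 in library 3 and 207 in library 4. Both were well below the controls, with library 3 at 41.2% and library 4 at 59.0% of the control mean. Its log2 fold change was -0.997 (SE 0.308, 95% interval -1.78 to -0.21, edgeR adjusted p = 0.171). The gene lies on chromosome 9, 83778692 to 83806277, minus strand.

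Cyp4f39, the cytochrome P450 that omega-hydroxylates that fatty acid, had the lowest fold change of the 9. It was at 111 CPM in Control 1, 137 in Control 2, 46.2 in library 3 and 60.6 in library 4. The groups were separated by more than the spread within either. The log2 fold change was -1.22 (SE 0.284, 95% interval -1.94 to -0.49, edgeR adjusted p = 0.166). Of genes with a mean of at least 5 CPM, 2.13% had a lower one. Cyp4f39 lies on chromosome 17, 32452723 to 32493320, plus strand.

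Cers3, the ceramide synthase that joins ultra-long fatty acids to the sphingoid base, differed between the 2 libraries labelled Otub2 knockout. It was at 163 CPM in Control 1, 171 in Control 2, 80.0 in library 3 and 134 in library 4. Both were below the controls, library 3 at 47.8% and library 4 at 80.2% of the control mean. Its log2 fold change was -0.64 (SE 0.334, 95% interval -1.49 to 0.21, edgeR adjusted p = 0.276). Cers3 lies on chromosome 7, 66743504 to 66823691, plus strand.

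Pnpla1 transfers linoleate to the omega-hydroxyceramide, the step that completes the acylceramide, and had the lowest level per length of the 9. It was at 32.4 CPM in Control 1, 36.9 in Control 2, 15.2 in library 3 and 17.7 in library 4. With TMM both libraries labelled Otub2 knockout had about the same level, 43.7% and 51.1% of the control mean. With no scaling factor Pnpla1 was at 38.0, 43.6, 9.55 and 19.4 CPM. The log2 fold change was -1.08 (SE 0.297, 95% interval -1.83 to -0.32, edgeR adjusted p = 0.166). Pnpla1 lies on chromosome 17, 28858411 to 28890309, plus strand. An antisense gene, Pnpla1os, overlaps its 5′ end and had 12, 18, 8 and 6 counts, against 463, 504, 217 and 366 for Pnpla1.

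The upstream sequences of 3 genes are shown because these genes span the range of the results: Cyp4f39 and Pnpla1, with the lowest fold changes, and Abca12, for which the 2 libraries labelled Otub2 knockout disagreed. Each is the 250 bases before the start of the gene in RefSeq (GRCm38.p6), written 5′ to 3′ on the strand of the gene, with matches to the letters searched in capitals.
Cyp4f39, chr17:32452473-32452722, plus strand: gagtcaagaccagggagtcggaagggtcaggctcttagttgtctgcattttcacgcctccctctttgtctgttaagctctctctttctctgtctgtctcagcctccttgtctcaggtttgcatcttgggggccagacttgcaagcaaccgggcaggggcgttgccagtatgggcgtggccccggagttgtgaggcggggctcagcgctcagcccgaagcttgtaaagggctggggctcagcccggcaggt
Pnpla1, chr17:28858161-28858410, plus strand: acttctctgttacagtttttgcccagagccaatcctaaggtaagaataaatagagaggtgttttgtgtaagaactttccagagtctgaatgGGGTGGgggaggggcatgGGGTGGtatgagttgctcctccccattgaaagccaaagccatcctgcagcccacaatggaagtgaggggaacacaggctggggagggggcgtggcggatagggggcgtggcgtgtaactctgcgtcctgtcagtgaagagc
Abca12, chr1:71414911-71415160, minus strand: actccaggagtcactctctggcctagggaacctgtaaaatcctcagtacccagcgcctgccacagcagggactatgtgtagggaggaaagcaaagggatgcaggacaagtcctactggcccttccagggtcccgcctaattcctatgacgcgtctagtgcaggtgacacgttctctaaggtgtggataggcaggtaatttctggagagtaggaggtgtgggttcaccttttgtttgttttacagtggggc
The 5 short motifs below were searched on both strands, without regard to overlap, in windows from 250 bases before to 50 after the start, for the 8 of 9 genes that were matched in the RefSeq promoter table used here (not Aloxe3). The letters CCACCC, a core bound by KLF factors, were found in the windows of Sptlc2 and Pnpla1 and in 31.5% of all 32851 windows. In Pnpla1 they occur at 2 places on the opposite strand, from -159 and -141 relative to the start, and read GGGTGG on the strand shown. The AP-1 letters TGANTCA, present in 7.81% of all windows, were in none of these 8. The same held for a core bound by grainyhead-like factors, ACCGGT, which 2.33% of all windows have. It held as well for the TEAD letters GGAATG, in 14.7% of all windows. A TATA box, searched as TATAAA and found in 13.6% of all windows, was also in none of the 8. The 8 windows ranged from 50.7% G and C in Cers3 to 81.3% in Ugcg, with a median of 52.7% over all windows. A match here is a run of letters and not a measured binding site.

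Ugcg, the glucosylceramide synthase that prepares ceramides for the lamellar granule, was at 157 CPM in Control 1, 163 in Control 2, 89.8 in library 3 and 101 in library 4. With TMM the spread within each group was small beside the distance between them. With no scaling factor Ugcg was at 184, 192, 56.6 and 110 CPM. Its log2 fold change was -0.74 (SE 0.246, 95% interval -1.37 to -0.12, edgeR adjusted p = 0.178). Ugcg lies on chromosome 4, 59189257 to 59222833, plus strand. Ugcg is made in most cell types, so its RNA is not specific to keratinocytes.

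Abca12, the lipid transporter that fills lamellar granules, was with TMM scaling the gene on which libraries 3 and 4 differed most. It was at 98.1 CPM in Control 1, 132 in Control 2, 113 in library 3 and 63.8 in library 4. Library 3 lay between the controls, and only library 4 was lower, at 55.4% of the control mean. With no scaling factor Abca12 was at 115, 156, 71.4 and 69.7 CPM, so the difference between libraries 3 and 4 rests on the scaling. The log2 fold change was -0.38 (SE 0.372, 95% interval -1.33 to 0.57, edgeR adjusted p = 0.526). Abca12 lies on chromosome 1, 71242276 to 71414910, minus strand, and its longest coding transcript has 53 exons.

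The lipoxygenases Alox12b and Aloxe3 act in sequence on the linoleate of the acylceramide, Alox12b making the hydroperoxide and Aloxe3 isomerising it. Alox12b was at 266 CPM in Control 1, 292 in Control 2, 159 in library 3 and 163 in library 4. With TMM the 2 libraries labelled Otub2 knockout were nearly equal and both far below the controls. With no scaling factor Alox12b was at 312, 345, 100 and 178 CPM. Its log2 fold change was -0.79 (SE 0.255, 95% interval -1.44 to -0.14, edgeR adjusted p = 0.175). Aloxe3 was at 108 CPM in each control, 79.4 in library 3 and 110 in library 4. Library 4 was level with the controls, and the log2 fold change was -0.20 (SE 0.275, 95% interval -0.90 to 0.50, edgeR adjusted p = 0.654).

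The 2 lipoxygenase genes are neighbours on chromosome 11, both on the plus strand, Aloxe3 at 69125896 to 69149115 and Alox12b at 69156989 to 69169792, with 7873 bases and 0 annotated genes between them. The ratio of Alox12b to Aloxe3 counts was 2.46 and 2.70 in the controls, 2.002 in library 3 and 1.49 in library 4. Libraries 3 and 4 both had a lower ratio than either control, and as a ratio within a library it does not depend on the scaling. The next lipoxygenase of the cluster, Alox8, had 43 and 49 counts among controls against 14 and 21 in libraries 3 and 4. The other 7 genes lie on separate chromosomes apart from Pnpla1 and Cyp4f39 on chromosome 17.

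The balance of other pairs within a library also differed between libraries. The ratio of Cers3 to Elovl4 counts was 0.490 and 0.466 in the controls, 0.553 in library 3 and 0.648 in library 4, so Cers3 kept more of its level than Elovl4 in both. The ratio of Abca12 to Ugcg was 0.627 and 0.813 in the controls, 1.26 in library 3 and 0.634 in library 4, which sets library 3 apart from the other libraries. These last 2 pairs were chosen after their values were seen.

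**Figure D2:**
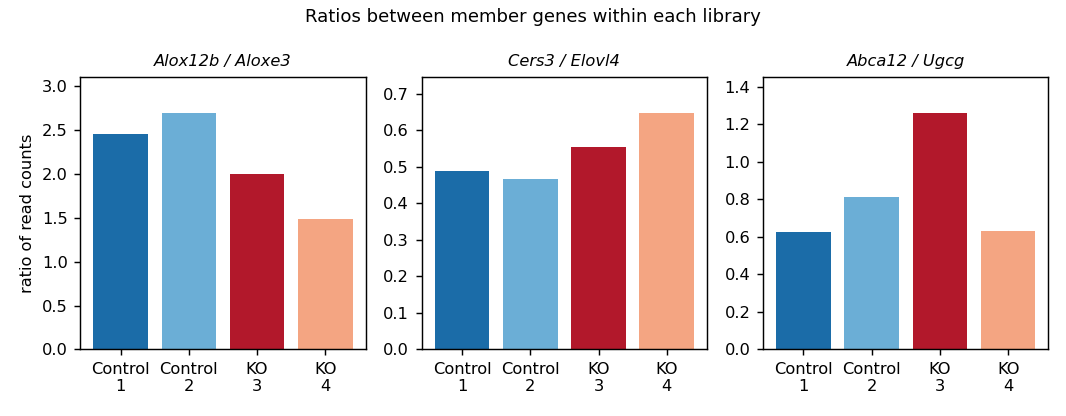
Ratio of read counts between 2 genes within each library, for 3 pairs, bars from 0. Alox12b to Aloxe3 is 2.46 and 2.70 in the controls and 2.002 and 1.49 in libraries 3 and 4, Cers3 to Elovl4 is above both controls in both libraries labelled Otub2 knockout, and Abca12 to Ugcg is highest in library 3 (1.26).

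Each library labelled Otub2 knockout was also set alone against the controls, under the assumption that a lone library has the variance seen among controls. Against library 3, edgeR called 6 of 9 genes lower and 0 higher (12.7% of all genes tested were lower and 22.4% higher, and 9.55% of genes with at least 5 CPM were lower): Elovl4, Cyp4f39, Cers3, Pnpla1, Ugcg and Alox12b. Their log2 fold changes ran from -1.43 for Cyp4f39 (SE 0.286, adjusted p = 5.25e-06, edgeR) to -0.82 for Alox12b (SE 0.277, adjusted p = 0.0122, edgeR). Against library 4, edgeR called 6 of 9 lower and 0 higher (22% lower and 18.8% higher over all genes, 8.97% lower with at least 5 CPM): Elovl4, Cyp4f39, Pnpla1, Ugcg, Abca12 and Alox12b. Their log2 fold changes ran from -1.01 for Cyp4f39 (SE 0.277, adjusted p = 0.00153, edgeR) to -0.64 for Ugcg (SE 0.271, adjusted p = 0.0468, edgeR). The 2 comparisons share their control libraries.

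With TMM scaling, libraries 3 and 4 differed most for Abca12 and Cers3. Abca12 had a log2 fold change of -0.03 (SE 0.265, edgeR adjusted p = 0.941) with library 3 and -0.83 (SE 0.274, edgeR adjusted p = 0.00971) with library 4. Cers3 had -1.07 (SE 0.279, edgeR adjusted p = 0.000735) with library 3 and -0.29 (SE 0.267, edgeR adjusted p = 0.371) with library 4. The difference between library 3 and library 4 was not tested, as each is a single sample. Sptlc2 and Aloxe3 passed in neither comparison.

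**Figure D3:**
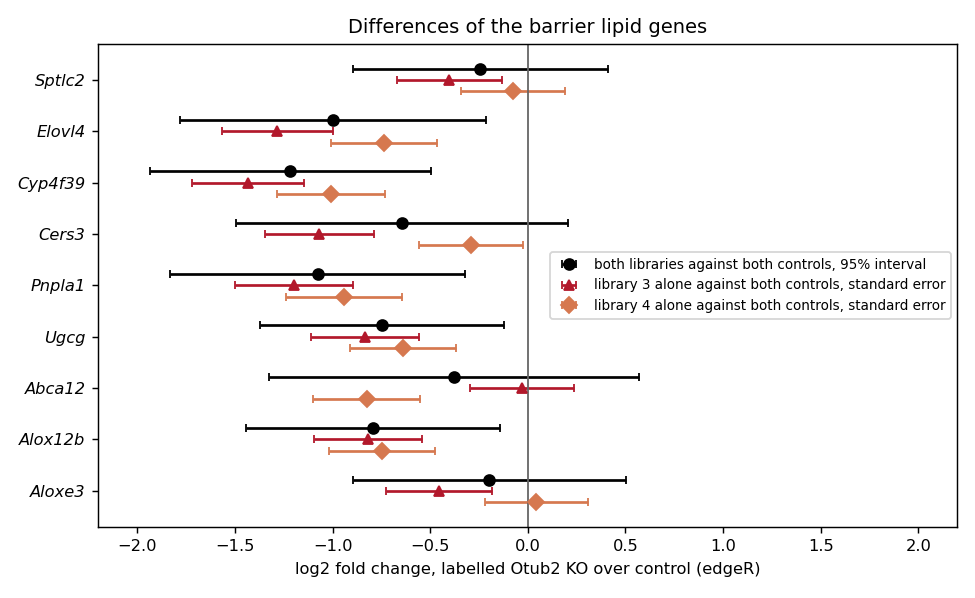
Log2 fold change of each gene, with both libraries labelled Otub2 knockout against both controls (black, 95% interval) and with library 3 or library 4 alone (coloured, standard error). The interval lies below 0 for Elovl4, Cyp4f39, Pnpla1, Ugcg and Alox12b, and the single-library values lie farthest apart for Abca12 and Cers3.

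Levels can be compared between genes only per length. Dividing CPM by the length of the longest coding transcript put Elovl4 first in the controls, at 111 and 123 CPM per kb, with Alox12b at 110 and 120, and these 2 did not differ beyond their spread. Cers3 followed at 50.2 and 52.7 CPM per kb and overlapped Cyp4f39 at 42.3 and 52.5. Ugcg was at 39.0 and 40.6 CPM per kb and Aloxe3 at 35.9 in both controls. Sptlc2, at 21.1 and 20.1, was above Abca12 at 10.7 and 14.5 CPM per kb, and Pnpla1 was last at 7.23 and 8.23. In libraries 3 and 4, Aloxe3 ranked 3 and 4, against 6 in both controls, and Cyp4f39 ranked 6 in both, against 4.

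The rank of Cyp4f39 depends on its length. The length behind the authors' deposited FPKM equals the summed exon length of GENCODE M21 for 8 of 9 genes, but for Cyp4f39 it is 1599 bases against 2856. By the deposited FPKM, Cyp4f39 ranked 3 in 3 libraries and 4 in library 4, at 79.0 and 98.7 among controls and 18.0 and 41.1 in libraries 3 and 4. The summed length of Aloxe3 is 2.12 times, and that of Abca12 1.62 times, that of its longest coding transcript, so the deposited FPKM places both lower relative to the others.

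**Figure D4:**
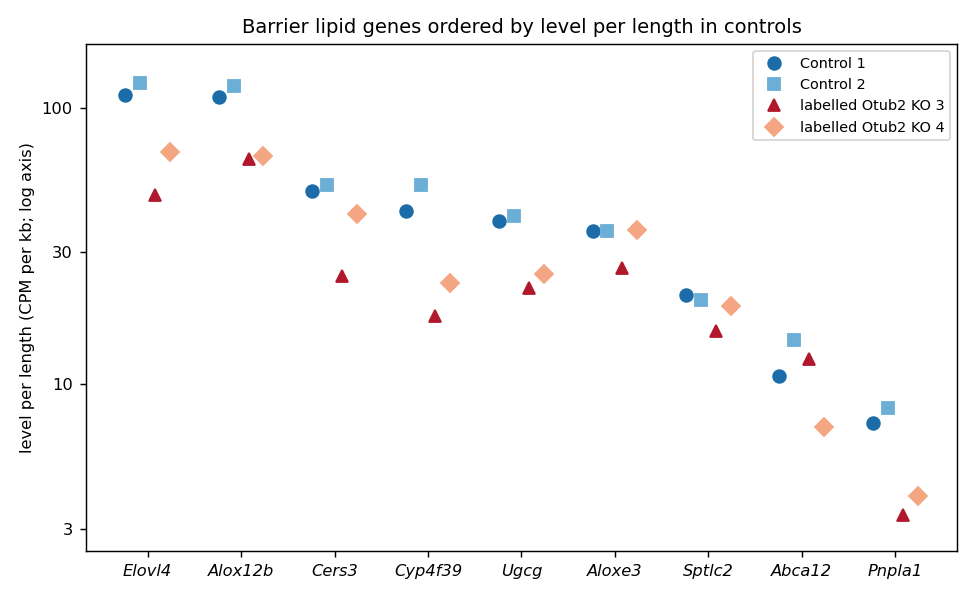
Level per length (CPM per kb of the longest coding transcript, log axis) in each library, genes ordered by their control mean. Elovl4 and Alox12b lead at 110 to 123 in the controls and Pnpla1 is last, and the points of Aloxe3 in libraries 3 and 4 stand among those of Cers3.

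The genes with the profile most like the median profile of the 9, by distance over the 4 libraries among 11256 other genes of at least 5 CPM, were Mgst2, Trmt44, Glo1, Rps25 and Rpl32. Mgst2, a microsomal glutathione transferase, was at 55.0 and 58.6 CPM among controls against 32.0 and 36.7 CPM in libraries 3 and 4. Rpl32, a ribosomal protein gene, was at 939 and 957 CPM against 549 and 586 CPM. Of the 9 genes, Ugcg was nearest to the median profile and Abca12 farthest, with 0 and 2022 of the 11256 genes nearer. The median was taken over the 9 genes themselves, and in libraries 3 and 4 it was the value of Ugcg, so the nearness of Ugcg is partly built in. With 4 libraries, such likeness is a description of these samples.

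Other genes of the barrier lipid pathway were then read from the same fit, from 5 lists of 62 genes, of which 61 were found and tested. Both libraries labelled Otub2 knockout lay below both controls for 25 of the 61 and above for 16. The shares were 33.1% and 26.9% over all genes tested, and 12% and 42.7% among those of at least 5 CPM. Some of the 61, such as Elovl3, are below 5 CPM. With no scaling factor 31 lay below and 2 above (Ormdl3 and Gba2). By library size only, 43% of all genes tested lay below and 9.17% above. Among those of at least 5 CPM the shares were 21.7% and 13.5%. For Cers2, Tecr, Sgms2, Nr1h2 and Pparg, among the genes named here, a place above both controls thus rests on the scaling. EdgeR called 0, and at an unadjusted p under 0.05 it gave 15 lower and 5 higher. Of all genes 15.2% and 9.42% were so, and 3.66% and 15.6% of those of at least 5 CPM. DESeq2 called 4 lower (Ephx3, Alox15, Acer1 and Lipm) and 0 higher, against 1.62% and 4.89%. The median log2 fold change was -0.17 for the 61 genes, -0.74 for the 9, 0.09 over all genes tested and 0.41 over genes of at least 5 CPM.

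In the list of sphingoid base and ceramide synthesis, 5 of 15 genes were under both controls in libraries 3 and 4 and 6 were over (median log2 fold change 0.04). Of all genes tested 33.1% were under and 26.9% over, and of those of at least 5 CPM 12% and 42.7%. Sptssb, a small subunit that stimulates serine palmitoyltransferase, was at 57.3 and 74.0 CPM among controls against 34.8 and 26.1 CPM in libraries 3 and 4, and Sptssa, a related subunit, at 109 and 108 CPM against 55.9 and 69.2 CPM. Ormdl3, a negative regulator of the same enzyme, was at 42.5 and 33.5 CPM among controls against 86.2 and 66.9 CPM in libraries 3 and 4. Cers2, the ceramide synthase of very-long-chain fatty acids in most tissues, was at 35.2 and 33.0 CPM against 58.3 and 75.01 CPM. With no scaling factor Cers2 was at 41.3, 39.0, 36.8 and 82.0 CPM, so its place in library 3 rests on the scaling. EdgeR adjusted p-values for these 4 genes were between 0.166 and 0.174.

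In fatty acid elongation, 3 of 10 genes were under both controls in libraries 3 and 4 and 3 were over (median log2 fold change 0.01). The shares were 33.1% under and 26.9% over for all genes tested, and 12% and 42.7% from 5 CPM up. Elovl7, an elongase of saturated fatty acids, was at 65.8 and 80.4 CPM among controls against 42.9 and 33.1 CPM in libraries 3 and 4 (log2 fold change -0.94, SE 0.279, edgeR adjusted p = 0.169). Elovl3, an elongase known from sebaceous glands, was low throughout, at 1.75 and 2.27 CPM against 0.768 and 0.145 CPM. Elovl1 was at 184 and 152 CPM among controls against 92.0 and 149 CPM in libraries 3 and 4, and Tecr, the reductase of the elongation cycle, at 102 and 103 CPM against 183 and 128 CPM. The edgeR adjusted p was 0.253 for Tecr and 0.384 for Elovl1. With no scaling factor Tecr had 115 CPM in library 3, below its 120 and 122 in the controls.

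In acylceramide formation and linoleate oxidation, 6 of 10 genes were under both controls in libraries 3 and 4 and 0 were over (median log2 fold change -0.50). Among all genes tested 33.1% were under and 26.9% over, and among those of at least 5 CPM 12% and 42.7%. Ephx3, an epoxide hydrolase of fatty acid epoxides in skin, was at 99.4 and 93.9 CPM among controls against 26.0 and 35.5 CPM in libraries 3 and 4 (log2 fold change -1.65, SE 0.279, edgeR adjusted p = 0.166, DESeq2 adjusted p = 0.00795). Sdr9c7, a dehydrogenase that acts on the oxidised linoleate after Aloxe3, had 55.6 and 61.2 CPM among controls and 34.5 and 27.4 in libraries 3 and 4 (edgeR adjusted p = 0.168). Alox15, another lipoxygenase, was at 23.2 and 4.54 CPM in the controls, which themselves differ widely, and at 0.838 and 1.40 CPM in the others (DESeq2 adjusted p = 0.00362). Alox8 was at 3.01 and 3.59 CPM against 0.978 and 1.02 CPM.

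In ceramide turnover and secreted lipid processing, 7 of 18 genes were under both controls in libraries 3 and 4 and 5 were over (median log2 fold change -0.17). All genes tested had shares of 33.1% under and 26.9% over, and those of at least 5 CPM 12% and 42.7%. Acer1, the alkaline ceramidase of differentiated keratinocytes, had the lowest p of all 61 genes. It was at 70.2 and 59.9 CPM among controls against 14.7 and 11.7 CPM in libraries 3 and 4 (log2 fold change -2.31, SE 0.291, edgeR adjusted p = 0.166, DESeq2 adjusted p = 7.79e-06). Lipm, an epidermal lipase, had 36.6 and 48.8 CPM among controls and 19.1 and 12.2 in libraries 3 and 4 (DESeq2 adjusted p = 0.0433). Gba2 and Sgms2, a glucosylceramidase and a sphingomyelin synthase, were on the other side, at 20.4 and 13.3 CPM against 44.6 and 28.4 CPM and at 4.199 and 5.93 CPM against 9.85 and 14.4 CPM.

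Among 8 transcription factors of the barrier lipid programme, 4 lay below both controls and 2 above (median 0.15). Over all genes tested the shares were 33.1% below and 26.9% above, and 12% and 42.7% from 5 CPM up. Grhl3, a grainyhead-like factor of barrier formation, was at 214 and 234 CPM among controls against 98.0 and 116 CPM in libraries 3 and 4 (log2 fold change -1.07, SE 0.260, edgeR adjusted p = 0.166). Klf4, a factor of terminal differentiation, had 868 and 890 CPM among controls and 313 and 519 in libraries 3 and 4 (-1.08, SE 0.370, edgeR adjusted p = 0.182). Nr1h2 and Pparg, nuclear receptors of lipid metabolism, had log2 fold changes of 0.55 and 0.83 (edgeR adjusted p = 0.263 and 0.297).

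**Figure D5:**
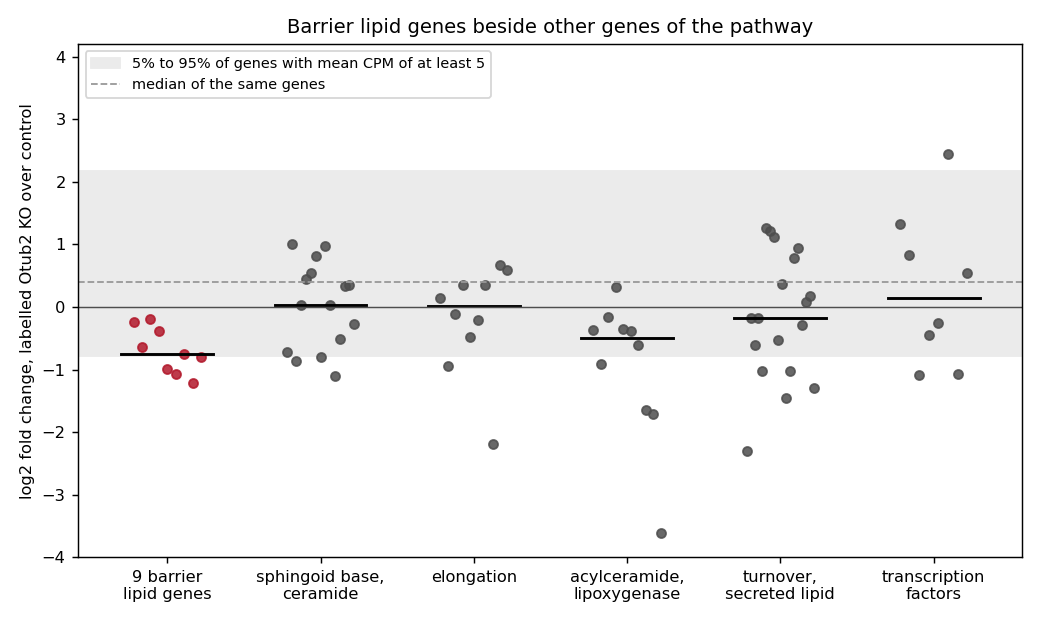
Log2 fold change of the 9 genes and of 61 other genes of the pathway in 5 lists, one point per gene, with black lines at list medians. The shaded band holds 5% to 95% of genes with a mean of at least 5 CPM (-0.79 to 2.17), the dashed line is their median (0.41), and the 9 genes lie between -1.22 and -0.20.

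Summed markers of other cell types and of differentiation also differed between libraries. Of 12 markers of differentiating keratinocytes 8 lay below both controls and 1 above, with none at 0. Of all genes tested 33.1% and 26.9% did so, and of those of at least 5 CPM 12% and 42.7%. The 12 markers summed to 19807 to 20812 CPM among controls, 7850 in library 3 and 7684 in library 4. Krt13 held much of each sum, at 11445, 10405, 5287 and 3954 CPM. In library 3 alone 11 of the 12 were below and 1 above, and in library 4 alone 8 and 4. The pan-epithelial markers summed to 40688 to 43577 CPM among controls, 23964 in library 3 and 37056 in library 4, with 4 of 10 below and 1 above. The 8 fibroblast markers summed to 150 to 180 CPM among controls, 667 in library 3 and 401 in library 4, with 5 above and none below or at 0. The part of these differences, and of the gland and cardiac markers of library 3, in the levels of the barrier lipid genes was not tested. With libraries scaled to the geometric mean of the pan-epithelial markers, 6 of the 9 genes lay below both controls (8.3% of genes with at least 5 CPM did). The median log2 fold change of the 9 was -0.62, and none was called (smallest edgeR adjusted p = 0.405). These markers did not move together: with TMM, Itgb4 was at 305, 447, 470 and 2005 CPM, and Perp at 4415, 4521, 2185 and 2127.

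Markers of the remaining cell types gave the following sums. With library 4 left out and the scaling redone, 46% of all genes tested lay below both controls in library 3 and 40.4% above. Among those of at least 5 CPM the shares were 28.6% and 57.9%. Sebaceous gland markers, 6 genes, were at 19.5 to 27.4 CPM among controls and 65.2 and 28.6 in libraries 3 and 4. Soat1 alone held 63.0 CPM in library 3, where 4 of the 6 were below both controls and Awat1 was at 0, and the median log2 fold change of the 4 tested was -0.92. The 6 adipocyte markers summed to 59.2 to 101 CPM among controls, 1725 in library 3, where Lpl held 1532 CPM and 4 of the 6 were below both controls, and 41.0 in library 4, while Adipoq was at 0.048 to 0.146 CPM in all 4. Skeletal muscle markers (6 genes) summed to 17.3 to 17.6 CPM among controls and to 425 and 60.5 in libraries 3 and 4. In library 3 the sum was mostly Ckm (290.1 CPM) and Acta1 (129.5 CPM), and the other 4 were below both controls. The 4 endothelial markers summed to 42.8 to 50.7 CPM among controls, 192 in library 3, where all 4 were above both controls, and 53.0 in library 4. Leukocyte markers (6 genes) summed to 34.6 to 37.9 CPM among controls and 52.2 and 24.2 in libraries 3 and 4. For 5 Schwann and neural markers, mostly Tubb3, the sums were 162 to 164, 132 and 173 CPM. The 5 simple epithelium markers summed to 164 to 175, 433 and 338 CPM, with Epcam at 153 and 150 CPM in the controls. Both libraries lay above both controls for 4 of these 5, not for Epcam, and below for 0. Of all genes tested 26.9% lay above and 33.1% below in this way. Krt7 was at 0.980 and 0.513 CPM among controls against 27.3 and 16.2 CPM in libraries 3 and 4.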

How the data were processed

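RNA-seq counts were analysed for 4 libraries, 2 per group. Per the file headers, the authors deposited a raw count for each gene in each library and an FPKM value beside it. HISAT2, DESeq and a human build, GRCh38, are listed without a role in the submitters' processing notes. The Ensembl IDs are of mouse, and 54409 of 54446 are in GENCODE M21 (GRCm38), which gave coordinates and lengths. Counter and strand setting: not given in the sources used here. A further 14785 features without a gene ID or symbol, 0.914% to 2.84% of counts, entered neither library sizes nor tests. Counts were tested with edgeR 4.0.16 (quasi-likelihood F-test, TMM, filterByExpr, Benjamini-Hochberg over 21916 genes, threshold 0.05) in R 4.3.3, with DESeq2 1.42.0 and limma 3.58.1 (voom) as alternatives. The test was checked on simulated data that vary less than these libraries, so the check does not cover their spread. Standard errors come from the F statistic. The FPKM values were used only for levels per length. Named genes were all 9 genes, up to 4 with the smallest p in each pathway list, and the 5 nearest profiles among genes of at least 5 CPM without predicted names. Other scalings, filters and tools, and leaving out each library, were tried as alternatives. The 9 genes, the lists and the tests were chosen with earlier results of these data known.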

Additional observations from a re-analysis of the deposited data

How the results depend on the processing

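No paired analysis was possible because the labels number the controls 1 and 2 and the libraries labelled Otub2 knockout 3 and 4. Of 14 alternatives, 10 kept all libraries, and in these 10 none of the 9 genes was called. Elovl4, Cyp4f39, Cers3, Pnpla1, Ugcg, Abca12 and Alox12b had log2 fold changes below 0 in all 14. With the features that name no gene kept, the log2 fold change of Sptlc2 turned to 0.016 and that of Aloxe3 to 0.062, and leaving out 1 library at a time gave -0.45 (without library 4) to 0.042 (without library 3) for Aloxe3. The cause was not tested. The median of the 9 genes, -0.74, moved with the scaling to -1.21 (upper quartile), -1.16 (library size only), -1.04 (median centring), -0.69 (RLE, and -0.69 with DESeq2), -0.62 (pan-epithelial markers), -0.61 (no filter on low counts) and -0.49 (features without a gene kept). Relative to the median of genes with at least 5 CPM, which ranged from -0.07 with upper-quartile scaling to 0.66 with such features kept and was 0.41 with TMM, it was -1.15 with TMM, -1.14 with upper quartile and -1.16 with pan-epithelial scaling. With upper-quartile scaling 15.8% of genes of at least 5 CPM lay above both controls and 31.3% below, and with library size only 13.5% and 21.7%. Under these 2 scalings and median centring all 9 genes lay below both controls. Over all genes, the numbers called higher and lower were 37 and 1433 with library size only, 780 and 258 with DESeq2, and 6 and 3 without a filter. Pathway genes called lower were 2 with library size only (Elovl3 and Acer1) and 4 with DESeq2.

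Leaving out 1 library at a time gave 0 to 5243 genes called higher and 0 to 5097 lower, 0 to 6 of the 9 genes called lower (6 without library 3 and 6 without library 4), 0 to 1 of the 9 above the controls, 0 to 11 pathway genes higher and 0 to 21 lower, and a median of the 9 from -0.83 to -0.69. Without Control 1 or Control 2 no gene of the 9 was called, and their smallest edgeR adjusted p was 0.832 or 0.732. In the runs with 1 library left out, 7 to 8 of the 9 genes lay below the controls. So did 37.6% to 47.6% of all genes tested, while 32.6% to 40.8% lay above. Among genes of at least 5 CPM the shares were 14.3% to 28.6% and 51.8% to 66.7%. The shares of all genes called with library 3 or library 4 alone are given above. The number of libraries, 2 per group, limits the precision, and 1 read was worth 0.0484 to 0.0732 CPM. The unscaled counts of pathway genes beyond the controls were added after seeing the data.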
